A study of Drosophila melanogaster with 9 samples.

Results

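The voltage-gated calcium channel genes described here are cacophony (cac), Ca-alpha1D, Ca-alpha1T, Ca-beta, straightjacket (stj) and narrow abdomen (na). They were found by their FlyBase symbols and make up 6 of the 23932 gene features and 47 of the 41200 transcripts that were counted in heads of Drosophila melanogaster. The study sequenced RNA from 3 kinds of head sample in 3 biological replicates each, to ask which mRNAs single ribosomes and polysomes carry. Polysome libraries came from the pooled heavy fractions of a sucrose gradient, 80S monosome libraries from the pooled fractions holding single ribosomes, and total RNA libraries from lysate kept back before the gradient. All 9 libraries were made from heads broken off frozen wild type Dahomey flies, whole adults in their first days, without any treatment, so that the flies were the same in every group and the sample compared was the ribosomal fraction. The labels do not separate the sexes, and each head lysate pools many flies and every cell type of the head. The 6 genes were selected on measured values, those of polysomes and 80S monosomes, so that contrast is given for them as a description, without a p-value.

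Voltage-gated calcium channels open when the membrane depolarises and let calcium into the cell, where it triggers transmitter release, muscle contraction and gene regulation. Each high-voltage channel has 1 large pore-forming alpha1 subunit of 4 repeated domains, which binds a cytoplasmic beta subunit and an extracellular alpha2delta subunit that help it reach the surface. Flies have 1 alpha1 gene for each of the vertebrate families: cac encodes the presynaptic channel of neurons, Ca-alpha1D the L-type channel of muscle and neuronal dendrites, and Ca-alpha1T the low-voltage T-type channel. Ca-beta encodes the beta subunit and stj an alpha2delta subunit needed at synapses. The na gene encodes the fly member of the sodium leak channel family, which has the same 4-domain architecture and sets resting excitability. By this known function na is a relative of the calcium channels and not a subunit of them.

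The pore genes are long. In the Ensembl BDGP6.54 annotation cac lies on the minus strand of chromosome X at 11931280 to 11985087, with 18 transcripts and a longest coding sequence of 2110 codons. Ca-alpha1D is on the plus strand of 2L at 16165831 to 16190540, with 10 transcripts and up to 2705 codons. Ca-alpha1T is on the minus strand of X at 6104085 to 6192483, with 5 transcripts and up to 3218 codons. The na gene is on the plus strand of X at 14266367 to 14277416, with 2 transcripts and up to 2233 codons. These 4 coding sequences stand between percentiles 98.1 and 99.4 of 13944 nuclear protein-coding genes, whose median is 392 codons. The auxiliary subunits are shorter. Ca-beta is on the minus strand of 2L at 11156118 to 11203544, with 9 transcripts of 432 to 844 codons, and stj on the plus strand of 2R at 13805794 to 13819571, with 3 transcripts of up to 1271 codons. No exon of any of the 6 genes overlaps an exon of another annotated gene on the same strand. The antisense RNA asRNA:CR43806 covers 248 nt of Ca-alpha1D exon on the other strand, held 14.5 counts over all libraries against 60666 for Ca-alpha1D, and the counting used the strand.

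Total counts lay between 13555484 in polysome replicate 1 and 44096558 in 80S monosome replicate 3. Of the 23932 features, 13076 passed the filter on low counts and were tested, with all 6 genes among them. Each of the 6 held between 2082 and 21118 counts in every library, so counting error was small beside the spread between polysome replicates. Values below are CPM, counts scaled to a common library total, after trimmed mean scaling, and are shares of a library, not amounts of RNA in a fraction. Between replicates of these bulk samples, fewer cells of a type and less RNA per cell cannot be told apart. All neuronal markers (6 of 6) were detected in every library, as were all glial, muscle, photoreceptor and fat body markers. Summed CPM of the neuronal markers was 10320 to 11890 in polysomes, 5663 to 6301 in 80S monosomes and 6556 to 7241 in total RNA. Of these, 4 of 6 were past the threshold as higher in polysomes than in 80S monosomes, beside 7.87% of all features. Against total RNA 3 of 6 were higher in polysomes, beside 10.4% of all features. Photoreceptor marker sums were 11090 to 13240 CPM in polysomes, 12970 to 14880 in 80S monosomes and 17050 to 19770 in total RNA. Glial marker sums were 1547 to 2026 CPM in polysomes, 1703 to 2280 in 80S monosomes and 2439 to 2727 in total RNA. Muscle marker sums were 11600 to 16500 CPM in polysomes, 10200 to 14920 in 80S monosomes and 10250 to 12980 in total RNA. Of the 8 muscle markers, 5 were called lower and 1 higher in polysomes, and 4 lower in 80S monosomes, each against total RNA. Over all features, 12.2% were called lower and 10.4% higher in polysomes, and 8.95% lower in 80S monosomes, in the same contrasts. Of the 6 glial markers, 0 were called higher and 1 lower in polysomes than in total RNA. For the 7 photoreceptor markers these counts were 1 higher and 2 lower. The part of these shifts in the channel results was not tested.

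All 6 genes had their highest levels in polysomes. Against 80S monosomes the log2 fold changes ran between 0.52 for stj and 2.29 for Ca-alpha1T, with a median of 1.09, while the median over all tested features was -0.08. In that contrast 6 of 6 lay past the adjusted threshold of 0.01 and 6 of 6 had no overlap between the libraries. Of all features 7.87% were called higher in polysomes and 15.9% had polysome libraries entirely above the 80S monosome libraries. The genes were proposed on this contrast, so nothing is read from those counts. Against total RNA, edgeR's quasi-likelihood test with Benjamini-Hochberg adjustment called 6 of 6 higher in polysomes, where 10.4% of all features were called higher, and 24.8% of all features had no overlap in that direction. For 80S monosomes against total RNA it called Ca-alpha1T and cac lower, 2 of 6, where 8.95% of all features were called lower and 25.6% had no overlap in that direction. By edgeR 0 of 6 were called higher in 80S monosomes than in total RNA, also 0 at an unadjusted p under 0.05 and 0 by DESeq2, where 6.68% of all features were called higher by edgeR. The contrasts with total RNA share their polysome and 80S monosome libraries with the known one.

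**Figure D1:**
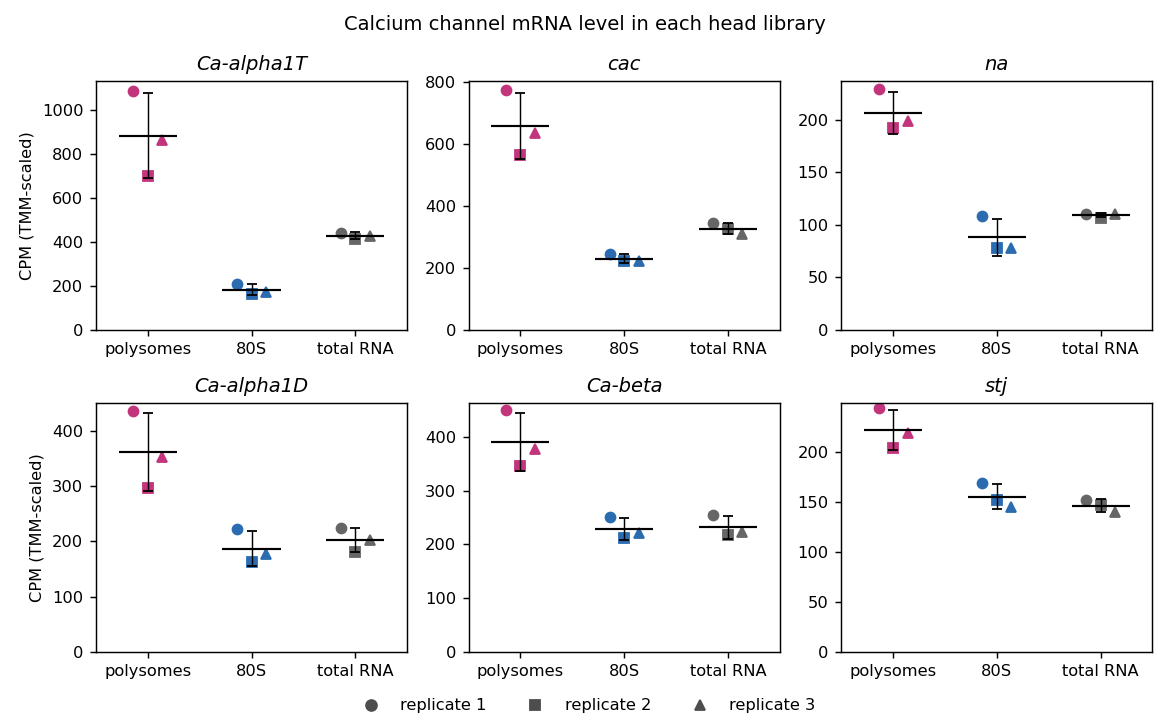
Level of each calcium channel gene in each library, in TMM-scaled CPM on axes that start at 0, with polysomes, 80S monosomes and total RNA side by side. Symbols are replicates, horizontal lines are means and bars are 1 SD (n = 3). For Ca-alpha1T the polysome libraries lie at 698 to 1085 CPM, 80S monosomes at 162 to 209 and total RNA at 412 to 442, while stj lies at 204 to 244, 145 to 169 and 140 to 152 CPM in the same order.

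Of the pore-forming subunits, Ca-alpha1T separated the fractions most. Its level was 1085, 698 and 864 CPM in polysome replicates 1, 2 and 3, against 209, 162 and 173 CPM in 80S monosomes and 442, 412 and 428 CPM in total RNA. Every polysome library stood above every total RNA library, and every total RNA library above every 80S monosome library. Polysomes exceeded 80S monosomes by 2.29 on the log2 scale (SE 0.16), a fitted fold of 4.87, and by 2.11 to 2.38 in each pair of libraries with the same replicate number. Polysomes exceeded total RNA by 1.05 (SE 0.15, adjusted p = 0.000469). In 80S monosomes Ca-alpha1T fell by 1.24 relative to total RNA (adjusted p = 0.000292), with a 95% interval of -1.57 to -0.91. That change was at percentile 3.88 of all tested features. The T-type channel gene was thus over-represented in polysomes and under-represented in 80S monosomes, each against the same total RNA libraries.

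The presynaptic channel gene cac followed the same order. It stood at 776, 566 and 636 CPM in polysomes, against 246, 221 and 221 CPM in 80S monosomes and 345, 326 and 310 CPM in total RNA, with no overlap between any of the groups. Polysomes were higher than 80S monosomes by 1.52 (SE 0.12), a fitted fold of 2.87. They were higher than total RNA by 1.01 (SE 0.12, adjusted p = 0.000152), a fitted fold of 2.02. 80S monosomes were lower than total RNA by a log2 fold change of -0.51 (95% interval -0.77 to -0.26, adjusted p = 0.0075). This last call sat close to the threshold. It was lost without 80S monosome replicate 2 (adjusted p = 0.0236) or 3 (0.0282), without polysome replicate 3 (0.0143), and without total RNA replicate 1 (0.0352), 2 (0.0215) or 3 (0.0132), while the log2 fold change stayed between -0.60 and -0.45. It was also lost with relative log expression size factors (-0.50, adjusted p = 0.0114) and in a fit of nuclear protein-coding genes alone (-0.48, adjusted p = 0.0147).

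Ca-alpha1D, the L-type channel gene, was 437, 297 and 353 CPM in polysomes, against 223, 162 and 177 CPM in 80S monosomes and 224, 180 and 202 CPM in total RNA. The polysome libraries stood above all others, while 80S monosome and total RNA libraries overlapped. Polysomes exceeded 80S monosomes by 0.95 (SE 0.16) and total RNA by 0.84 (SE 0.16, adjusted p = 0.00184). The call against total RNA was lost without total RNA replicate 2, where the log2 fold change was 0.77 and the adjusted p 0.0101. For 80S monosomes against total RNA the log2 fold change was -0.11 (adjusted p = 0.624), with an interval of -0.45 to 0.23. A decrease as large as that of Ca-alpha1T lies outside this interval.

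The auxiliary subunits Ca-beta and stj had the smallest polysome fold changes of the 6, over 80S monosomes and over total RNA. Ca-beta stood at 451, 346 and 378 CPM in polysomes, against 251, 213 and 221 CPM in 80S monosomes and 256, 217 and 223 CPM in total RNA. Its polysome libraries were the highest, and the other groups covered nearly the same range. Polysomes were higher than 80S monosomes by 0.78 (SE 0.12) and higher than total RNA by 0.76 (SE 0.12, adjusted p = 0.00069). The 80S monosome level differed from total RNA by -0.02 (95% interval -0.28 to 0.23, adjusted p = 0.908).

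The alpha2delta gene stj stood at 244, 204 and 218 CPM in polysomes, against 169, 152 and 145 CPM in 80S monosomes and 152, 147 and 140 CPM in total RNA. Polysomes again held the highest libraries, and 80S monosomes and total RNA overlapped. The log2 fold change was 0.52 (SE 0.09) for polysomes over 80S monosomes, the smallest of the 6, and 0.60 (SE 0.09, adjusted p = 0.00074) for polysomes over total RNA. For 80S monosomes over total RNA it was 0.08, with an interval of -0.12 to 0.29 (adjusted p = 0.535).

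The sodium leak channel gene na stood at 229, 192 and 199 CPM in polysomes, against 108, 78.3 and 77.6 CPM in 80S monosomes and 111, 107 and 110 CPM in total RNA. The polysome libraries were the highest. 80S monosome replicate 1 lay within the narrow range of total RNA, and the remaining 80S monosome libraries lay below it. Polysomes exceeded 80S monosomes by 1.23 (SE 0.13) and total RNA by 0.92 (SE 0.13, adjusted p = 0.000387). For 80S monosomes against total RNA the log2 fold change was -0.31 (95% interval -0.59 to -0.03, adjusted p = 0.0861). With the replicate number as a block it was -0.33 and passed the threshold (adjusted p = 0.00232), and it also passed without 80S monosome replicate 1 (-0.48, adjusted p = 0.00345).

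**Figure D2:**
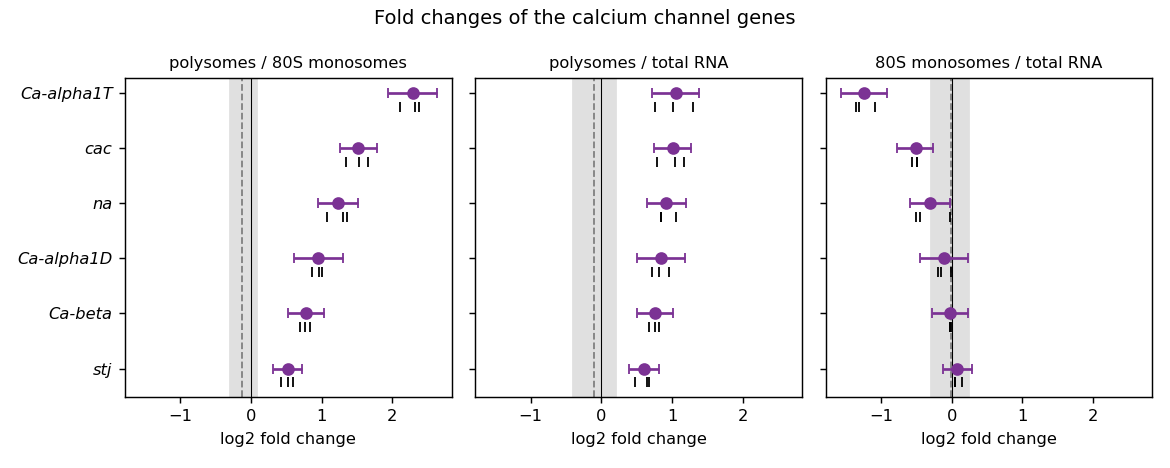
Log2 fold changes of the 6 genes for polysomes over 80S monosomes, polysomes over total RNA and 80S monosomes over total RNA. Points are edgeR estimates with 95% intervals, ticks are the differences of libraries with the same replicate number, the dashed line is the median and the grey band the middle 50% of nuclear protein-coding genes. Every point lies right of the grey band in both polysome panels, and in the third panel Ca-alpha1T (-1.24), cac (-0.51) and na (-0.31) lie at or left of it.

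Levels of different genes were compared per kilobase of exon. In polysomes the order of CPM per kilobase was Ca-alpha1T (67.2 ± 14.8, SD, n = 3), cac (55.3 ± 9.0), Ca-beta (46.9 ± 6.47), stj (35.4 ± 3.18), Ca-alpha1D (34.6 ± 6.70) and na (26.3 ± 2.51). Only Ca-beta and stj were neighbours whose libraries did not overlap. In 80S monosomes the order was Ca-beta (27.4 ± 2.43), stj (24.7 ± 2.0), cac (19.2 ± 1.21), Ca-alpha1D (17.9 ± 3.02), Ca-alpha1T (13.8 ± 1.86) and na (11.2 ± 2.23). There, stj and cac were the only neighbours without overlap. Total RNA had Ca-alpha1T (32.5 ± 1.15), Ca-beta (27.8 ± 2.49), cac (27.4 ± 1.48), stj (23.3 ± 0.970), Ca-alpha1D (19.3 ± 2.11) and na (13.9 ± 0.251), and there only Ca-beta and cac overlapped. The 2 auxiliary subunits therefore led the order in 80S monosomes, where Ca-alpha1T was the fifth of 6, while Ca-alpha1T led in polysomes and in total RNA. These levels assume that reads cover all annotated exons of a gene.

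Replicates differed by a pattern that the fractions shared. Replicate 1 had the highest level of its fraction for 6 of 6 genes in every fraction, which held for 2098 of the 13076 features (16%). The coefficient of variation between polysome replicates ran between 8.98% for stj and 22% for Ca-alpha1T, against 1.81% for na to 10.9% for Ca-alpha1D in total RNA. Replicate 1 also had the lowest fat body marker sum of its fraction, with 25340 CPM against 39650 and 37530 in polysomes, 28430 against 44440 and 44410 in 80S monosomes, and 34250 against 47500 and 47370 in total RNA. Its muscle marker sum was the highest, with 16500 CPM against 11600 and 13800 in polysomes, 14920 against 10200 and 11140 in 80S monosomes, and 12980 against 10250 and 11240 in total RNA. Its neuronal marker sum was the highest as well, with 11890 CPM against 10320 and 10710 in polysomes, 6301 against 6115 and 5663 in 80S monosomes, and 7241 against 7172 and 6556 in total RNA. Single neuronal markers differed. In polysome replicate 1, brp was highest (1791 CPM against 1422 and 1628). There nSyb (1268 against 1517 and 1420) and Syt1 (1552 against 1615 and 1672) were lowest. Replicate 1 had the lowest glial sum in polysomes (1547) and 80S monosomes (1703), but not in total RNA (2565). Its photoreceptor sum was lowest in polysomes (11090) and highest in 80S monosomes (14880) and total RNA (19770). The part of these shifts in the channel levels was not tested, and with any 1 library left out the log2 fold changes of all 6 genes stayed positive in both polysome contrasts.

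A longer coding sequence has room for more ribosomes, and the 6 genes were set beside the nuclear protein-coding genes of at least 1500 codons, a class chosen after the values were seen. It held 612 genes, including the 4 pore genes cac, Ca-alpha1D, Ca-alpha1T and na. The median log2 fold change of the class was 0.21 for polysomes over 80S monosomes, 0.62 for polysomes over total RNA and 0.35 for 80S monosomes over total RNA. In this class 63.9% of the genes were called higher in polysomes than in total RNA and 27.5% higher than in 80S monosomes. Beside that background the polysome values of the pore genes against total RNA, 0.84 to 1.05, lay at percentiles 80.1 to 95.1 of the class. Their values in 80S monosomes over total RNA were at percentile 1.31 for Ca-alpha1T, 6.86 for cac, 9.97 for na and 17.3 for Ca-alpha1D. For 80S monosomes over total RNA, 29.7% of the class was called higher and 6.21% lower. Ca-beta and stj are shorter than the class. Set beside it, Ca-beta lay at percentile 70.3 for polysomes over total RNA and 21.4 for 80S monosomes over total RNA. The percentiles of stj were 48.0 and 27.9 in the same order. All these percentiles are descriptions of the 6 genes and were not tested.

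**Figure D3:**
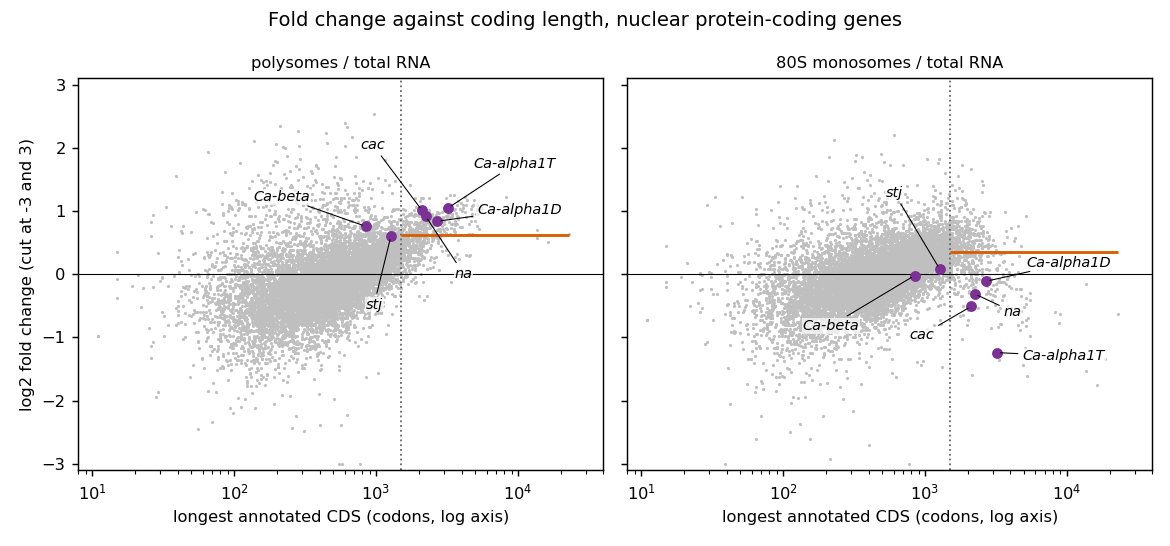
Log2 fold change of polysomes over total RNA and of 80S monosomes over total RNA against the longest annotated coding sequence, on a log axis, for tested nuclear protein-coding genes (grey points, cut at -3 and 3) and the 6 channel genes (purple). The dotted line marks 1500 codons and the orange line the median of the 612 longer genes, 0.62 on the left and 0.35 on the right. On the right the 4 pore genes lie below that median, Ca-alpha1T at -1.24.

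The isoforms of the 6 genes were compared through the share of each transcript in the counts of its gene. Reads on exons that several isoforms share had been split evenly between them, which pulls the shares of similar isoforms together. The gene-level test for a change of isoform use (edgeR's diffSpliceDGE, Benjamini-Hochberg adjusted over 6107 genes) called 0 of 6 in polysomes against total RNA, where 2.21% of genes were called, and 0 of 6 in 80S monosomes against total RNA, where 3.34% were called. No gene of the 6 had an unadjusted p under 0.05, and the smallest was 0.157 for Ca-beta in 80S monosomes. Some transcripts had identical shares in every library, such as FBtr0474239 and FBtr0474240 of cac. The even splitting leaves such a test little to detect, so the missing calls cannot show that isoform use was unchanged. The Ca-beta transcript FBtr0306386, which has a 3′-UTR of 3152 nt, took 23.6%, 27.8% and 26.6% of the gene's counts in polysomes, 22.3%, 22.8% and 24.1% in 80S monosomes and 29.5%, 28.2% and 27.8% in total RNA. The 80S monosome libraries lay below all total RNA libraries. With the replicate number as a block, Ca-beta passed the threshold for 80S monosomes against total RNA (adjusted p = 0.000503).

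For the other genes the mean share of a transcript differed between fractions by at most 2.26 percentage points, although the even splitting of shared reads narrows such differences. The 4 Ca-alpha1D transcripts with a 3′-UTR of 793 to 1400 nt together held 43.9% to 45.0% in polysomes, 43.1% to 44.2% in 80S monosomes and 45.9% to 46.5% in total RNA, with total RNA above all other libraries. For Ca-alpha1T, FBtr0334984 with a 3′-UTR of 2968 nt held 42.4% of the counts in polysomes, 43.4% in 80S monosomes and 44.6% in total RNA. Its polysome libraries (40.2% to 44.14%) lay below the total RNA libraries (44.5% to 44.8%), and the 4 remaining transcripts shared the rest nearly evenly. The 3 cac transcripts with a 3′-UTR of 4193 to 4765 nt together held 31.5 ± 0.770% in polysomes, 32.8 ± 1.16% in 80S monosomes and 33.6 ± 0.583% in total RNA (SD, n = 3), with no overlap between polysomes and total RNA. For stj the transcript FBtr0304695, with the short 3′-UTR of 343 nt, held 19.6% in polysomes, 19.2% in 80S monosomes and 18% in total RNA, again with no overlap between polysomes and total RNA. The mean shares of the na transcripts differed by at most 0.16 percentage points between any of the groups. These transcripts were picked after their shares were seen. How often the shares of all transcripts do not overlap was not counted, so nothing is read from these gaps. The unadjusted p of diffSpliceDGE for polysomes against total RNA was 0.999 for Ca-alpha1D, 0.943 for Ca-alpha1T, 0.998 for cac and 0.344 for stj.

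Genes that work with these channels were counted in 7 lists of 55 genes. The lists were chosen with earlier results of these data known. Some of the genes named below were picked by their change between polysomes and 80S monosomes. Adjusted p-values of list genes in that contrast are therefore descriptions, not independent tests. Of these, 29 were called higher and 1 lower in polysomes than in 80S monosomes, 27 higher and 2 lower in polysomes than in total RNA. For 80S monosomes over total RNA, 1 was higher and 9 were lower. Without total RNA replicate 3 the 27 became 17, without total RNA replicate 1 or 2 the 9 became 5 or 4, and without polysome replicate 3 the 1 lower than in 80S monosomes became 0. The 1 that was higher in 80S monosomes became 2 without polysome replicate 2. The 2 lower in polysomes than in total RNA became 0 without polysome replicate 1 or 3 or any total RNA replicate, and 1 without polysome replicate 2 or 80S monosome replicate 3. Over all features, 7.87% were called higher and 4.31% lower for polysomes over 80S monosomes, and 10.4% and 12.2% for polysomes over total RNA. In 80S monosomes over total RNA, 6.68% of all features were higher and 8.95% lower. These shares are also the background for the counts of single lists below. The 3 genes known to act with na, unc79, unc80 and Mid1, were all called higher in polysomes in both contrasts. Mid1, which encodes an endoplasmic reticulum factor needed for the na channel, stood at 739, 601 and 676 CPM in polysomes, against 351, 271 and 272 CPM in 80S monosomes and 395, 371 and 354 CPM in total RNA. Its polysome libraries did not overlap any other. The log2 fold changes over 80S monosomes were 1.17 for Mid1 (adjusted p = 5.2e-05), 1.17 for unc79 (adjusted p = 7.7e-05) and 1.05 for unc80 (adjusted p = 0.000139), beside 1.23 for na. Against total RNA they were 0.85, 0.84 and 0.97, all past the threshold. In 80S monosomes over total RNA the values of Mid1, unc79 and unc80 were -0.33, -0.33 and -0.08, with adjusted p of 0.0616, 0.0716 and 0.654.

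The alpha2delta genes other than stj were less uniform. The gene stol rose by 0.65 in polysomes relative to 80S monosomes (adjusted p = 0.000234) and fell by 0.49 in 80S monosomes relative to total RNA (adjusted p = 0.00159), while its polysome value over total RNA was 0.16 (adjusted p = 0.148). For Ca-Ma2d the polysome value over 80S monosomes was 0.46 (adjusted p = 0.0505), and for CG16868 it was 0.13 (adjusted p = 0.386). CG16868 was higher in polysomes than in total RNA, by 0.44 (adjusted p = 0.00593). Of the 9 channel regulators, 2 were called higher in polysomes than in 80S monosomes, the G protein subunit gene Ggamma1 (0.74, adjusted p = 0.000881) and Rgk2 (0.56, adjusted p = 0.00966), of a GTPase family that inhibits calcium channels in mammals. The median of the 9 regulators was 0.31. Against total RNA the polysome value of Ggamma1 was 0.16 (adjusted p = 0.281). Rgk2 (0.82, adjusted p = 0.000755) and CASK (0.75, adjusted p = 0.000734) were higher in polysomes than in total RNA. Cam, which encodes calmodulin (-0.52, adjusted p = 0.00668), and the kinase gene CaMKII (-0.40, adjusted p = 0.00674) were lower. Both lower calls were lost with RLE size factors, with nuclear protein-coding genes only, and without polysome replicate 1 or 3 or any total RNA replicate.

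At the active zone, the presynaptic site where the cac channel sits, 9 of 16 genes were called higher and 1 lower for polysomes over 80S monosomes, and the median was 0.53. The largest was RhoGAP100F, also called syd-1, an assembly factor of the active zone, with 1.66 (adjusted p = 1.2e-05). Rim, which anchors calcium channels at release sites, rose by 0.96 (adjusted p = 4.9e-05). The lower gene was cass (-0.91, adjusted p = 0.00165), whose RefSeq synonyms are those of an apoptosis inhibitor. Its known function is not one of the active zone, and it stayed in the list as written. The genes brp, Syt1 and nSyb of this list are also among the neuronal markers.

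Among the genes of calcium stores and clearance, 4 of 9 were called higher in polysomes than in 80S monosomes, led by the ryanodine receptor RyR, the release channel of the endoplasmic reticulum (1.5, adjusted p = 0.000347), and the store-operated channel Orai (0.92, adjusted p = 0.000351). RyR stood at 967, 524 and 702 CPM in polysomes, against 289, 225 and 262 CPM in 80S monosomes. Of the calcium-gated potassium channel genes 1 of 3 was called, slo (0.74, adjusted p = 0.000655), while SK had 0.22 (adjusted p = 0.133).

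Of the voltage-gated sodium and potassium channel genes 9 of 12 were called higher for polysomes over 80S monosomes, and the median of the 12 was 0.65. The sodium channel gene para had 1445, 1103 and 1520 CPM in polysomes, against 327, 242 and 291 CPM in 80S monosomes and 933, 829 and 852 CPM in total RNA. Its log2 fold change over 80S monosomes was 2.24 (adjusted p = 4e-06), beside 2.29 for Ca-alpha1T. NaCP60E, a related 4-domain channel gene, had 1.73 (adjusted p = 1e-05). Relative to total RNA, para fell by 1.6 in 80S monosomes (adjusted p = 3.6e-05) and NaCP60E by 0.85 (adjusted p = 0.00104). Low 80S monosome levels beside total RNA were therefore also measured for 4-domain channel genes outside the calcium channel families.

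**Figure D4:**
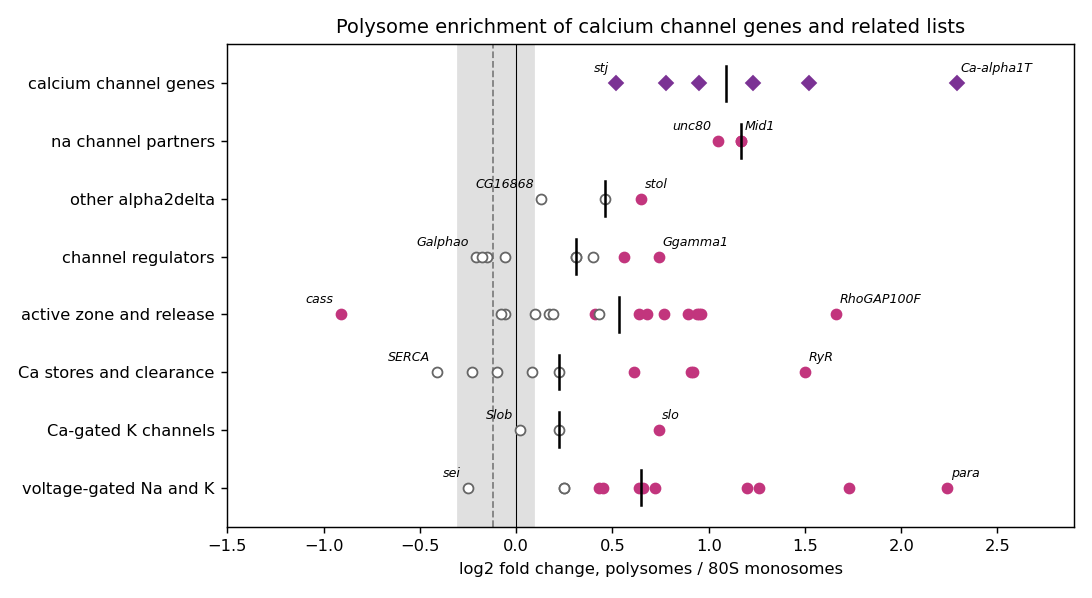
Log2 fold change of polysomes over 80S monosomes for the calcium channel genes (diamonds) and for the genes of 7 lists (circles, filled where past the threshold of 0.01), with the median of each row as a vertical bar. The dashed line is the median of nuclear protein-coding genes, -0.12, and the grey band their middle 50%. The calcium channel genes run between 0.52 and 2.29, and 29 of the 55 list genes lie past the threshold on the right and cass on the left.

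The genes whose levels followed each channel gene most closely over the 9 libraries were found by Pearson's r of log2 CPM among the 6183 nuclear genes for proteins that averaged 10 CPM or more. For Ca-alpha1T they were spen, a nuclear RNA-binding protein (r = 0.999), and the channel gene NaCP60E (0.997). For cac they were the neuronal cadherin CadN (0.999) and the Rac activator sif (0.999). For na they were the phosphodiesterase Pde9 (0.995) and CG42450 (0.995). For Ca-alpha1D they were CG5877 (0.993) and the sex determination gene dsx (0.992), for Ca-beta heca (0.994) and the glucose transporter Glut1 (0.993), and for stj the glutamate receptor subunit Nmdar2 (0.995) and the metalloprotease mmd (0.995). The r between the channel genes themselves ran between 0.761 for Ca-alpha1T with stj and 0.989 for Ca-alpha1D with Ca-beta. The 9 points fall into the 3 fractions and share their libraries, so these values describe likeness only.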

How the data were processed

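Polysomes, 80S monosomes and total RNA of fly heads were compared with 3 libraries each. The authors used Trimmomatic 0.33 to trim the reads, STAR 2.7.10a to map them and featureCounts 2.0.1 to assign them by strand (versions from the submitters' processing notes), splitting multi-mapping and multi-overlapping reads. They deposited estimated counts per gene and per transcript without normalization, and 33.5% to 42.6% of the values of a library were not whole. Counts were rounded and fitted over all 9 libraries in R 4.3.3 with edgeR 4.0.16 (filterByExpr, TMM, robust quasi-likelihood, no block), with Benjamini-Hochberg adjustment and a threshold of 0.01. Intervals are at 95%. Both tests were tried on simulated counts with known changes, and the outcome is not given here. P-values rest on the spread between replicates, estimated over all 9 libraries with information shared between genes. They measure no spread beyond these 3 replicates of each fraction.

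Symbols, coordinates and lengths came from Ensembl BDGP6.54, the same assembly as but newer than the authors' annotation. It matched 23888 of 23932 features, 37 of them under a renamed identifier found by transcript sums, Ca-beta included (FBgn0259822, now FBgn0287724). The genes and lists were chosen with earlier results of these data known. Beyond the 6 genes, the text names the 2 genes of each list with the largest change between polysomes and 80S monosomes, all genes of the 2 lists of channel partners, and the 2 genes most like each channel gene. Other transcripts or genes were named after their values were seen.

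Replicates carry the same numbers in all fractions. Deviations from the fraction means correlated between same-numbered libraries in each of 9 pairs (0.179 to 0.416). Differently numbered libraries were not compared, so these values alone do not establish the pairing. The main fit, which gave the SE and p-values above, ignores the numbers, and the replicate block was run as an alternative. The others were DESeq2 1.42.0, RLE size factors, nuclear protein-coding genes only, 2 filters on low counts, the 6 libraries compared and each library left out. Sequences were not used here.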

Additional observations from a re-analysis of the deposited data

How the results depend on the processing

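The direction of all 6 genes in both polysome contrasts was the same under 16 alternatives. Over 80S monosomes the ranges were 1.42 to 1.61 for cac, 0.83 to 1.09 for Ca-alpha1D, 2.14 to 2.42 for Ca-alpha1T, 0.70 to 0.85 for Ca-beta, 0.46 to 0.59 for stj and 1.14 to 1.4 for na. With 1 library left out, the values over total RNA were 0.70 to 1.0 for Ca-alpha1D, and for 80S monosomes over total RNA -0.60 to -0.45 for cac and -0.48 to -0.23 for na. For cac the value was -0.50 with RLE size factors and -0.48 with nuclear protein-coding genes only, both no longer past the threshold. With the replicate block na had -0.33 and passed, as did Ca-beta isoform use, and the block changed no other call of the 6 genes. Counts over all features moved more, and the cause was not tested. For polysomes over 80S monosomes, 1029 were called higher and 563 lower, against 1098 and 373 with RLE, 533 and 211 with nuclear protein-coding genes only (fewer genes tested), 1673 and 1860 with the block, 930 lower with DESeq2 and 169 lower with the 6 libraries compared. For polysomes over total RNA they were 1366 and 1593, against 1570 and 1319 with RLE, 1271 and 953 with nuclear protein-coding genes only, 2341 and 3064 with the block and 2230 higher with DESeq2. For 80S monosomes over total RNA they were 873 and 1170, against 1606 and 1855 with DESeq2, 1996 and 2510 with the block, and 753 and 681 with nuclear protein-coding genes only. Among nuclear protein-coding genes the main fit itself called 500 higher and 433 lower for polysomes over 80S monosomes. It called 921 and 1356 of them for polysomes over total RNA, and 691 and 765 for 80S monosomes over total RNA. Those are the like counts for the fit of these genes alone. Of the 55 list genes, 1 was lower in polysomes than in 80S monosomes, and 2 with the block. Lower in polysomes than in total RNA were 2, but 0 with RLE or nuclear protein-coding genes only and 1 with the 6 libraries compared. For 80S monosomes over total RNA, 1 list gene was higher, against 5 with DESeq2 and 7 with the block, and 9 lower, against 17 with the block. Isoform use was called for 135 genes in polysomes and 204 in 80S monosomes against total RNA, and for 282 and 454 with the block. With 1 library left out, polysomes over 80S monosomes gave 673 to 1057 higher, 176 to 592 lower and 0 to 1 list genes lower, and polysomes over total RNA gave 689 to 1663 higher, 778 to 1947 lower and 17 to 33 list genes higher and 0 to 2 lower. 80S monosomes over total RNA gave 199 to 941 higher, 603 to 1396 lower, 1 to 2 list genes higher and 4 to 11 lower, and isoform calls were 76 to 204 in polysomes and 103 to 247 in 80S monosomes.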
